A study of Homo sapiens with 32 samples.

Results

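The nuclear genes that encode the subunits of the oxidative phosphorylation complexes were followed in 2 human prostate cancer cell lines under endoplasmic reticulum (ER) stress and after depletion of MOCOS. Members were the gene symbols of the deposited table that match a name pattern for subunits. It covered complex I (NDUFA, NDUFB, NDUFC, NDUFS and NDUFV with a number), complex II (SDHA to SDHD) and complex III (UQCR genes and CYC1). It also covered complex IV (COX4 to COX8 genes) and ATP synthase, complex V (ATP5 genes). NDUFAB1, a further subunit of complex I, does not match the pattern and was counted in a separate list with carriers. Of 88 matching symbols, 2 pseudogenes were dropped, which left 86 members of 29744 genes: 36 in complex I, 4 in complex II, 10 in complex III, 18 in complex IV and 18 in complex V. NDUFA4 was counted in complex IV, where its protein sits, and COX7A2L, a factor that joins complexes into supercomplexes, was kept there by its name. ATP5S and ATP5SL, now called DMAC2L and DMAC2, were likewise kept in complex V by their names, although DMAC2 is known as an assembly factor of complex I. Symbols are those of the table, so ATP5G1 is the gene now called ATP5MC1.

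Polyadenylated RNA was sequenced from LNCaP, a line from a lymph node metastasis that responds to androgen, and its castration-resistant descendant C4-2B. Cells received a control siRNA (siCTRL) or siRNA against MOCOS (siMOCOS, molybdenum cofactor sulfurase), each with thapsigargin (TG) or with vehicle alone, which gives 8 groups of 4 libraries. TG blocks the SERCA calcium pump and empties the ER of calcium; the sources used here do not give its dose or time. Per line and drug, 2 knockdown libraries come from each of 2 siRNAs, but the columns do not name them, so p-values treat libraries of both siRNAs as replicates of 1 group.

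Complexes I and II feed electrons from NADH and succinate into the respiratory chain, complexes III and IV pass them on to oxygen, and complexes I, III and IV pump protons across the inner mitochondrial membrane. ATP synthase lets the protons flow back through a ring of c subunits, which turns the rotor and drives the formation of ATP on the catalytic head. Most subunits are made in the cytosol from nuclear genes and imported. A few core subunits of complexes I, III, IV and V are encoded by mitochondrial DNA and were not analysed here.

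Library totals ranged from 7.51 to 27.1 M counts. MOCOS itself averaged 31.5 CPM (counts relative to the library total after TMM scaling) in C4-2B siCTRL cells and 3.42 CPM in siMOCOS cells, and 24.3 and 3.75 CPM in LNCaP. With TG it averaged 89.4 and 14.8 CPM in C4-2B and 96.1 and 14.3 CPM in LNCaP. All 10 luminal prostate markers averaged at least 1 CPM in every group, and their summed level ranged from 3040 to 3330 CPM in C4-2B siCTRL libraries and from 2050 to 2130 CPM with TG, and from 6740 to 7160 and from 3680 to 3910 CPM in LNCaP. Summed basal, neuroendocrine, fibroblast, immune and endothelial markers reached at most 22.6 CPM in any library. In 6 libraries the deviation of a gene from its group mean followed transcript length, with a correlation across genes beyond 0.24 in either direction: siCTRL replicates 2 and 4 and siCTRL with TG replicates 2 and 3 of C4-2B, and siCTRL with TG replicates 2 and 4 of LNCaP. Genes are not independent replicates, and this limit was chosen after seeing the data, after a higher one that no library passed. The deviation of 15 libraries followed GC content beyond the same limit, 11 of them not among the 6, with correlations from -0.525 to 0.429 over all libraries. The members' median transcript length was 751.5 bases, against 2528 over all genes tested in C4-2B and 2530 in LNCaP. In 28 of 32 libraries the members deviated from their group in the direction opposite to that correlation, by a median log2 of -0.37 in C4-2B siCTRL replicate 2 and -0.40 in C4-2B siCTRL with TG replicate 3. The counts of members called with TG in siCTRL cells and between the lines are also given without the 6 libraries. The libraries that followed GC content were not left out, and the offsets used below correct for both properties.

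The summed level of the 86 members was lower in TG-treated cells of both lines. In C4-2B siCTRL the 4 libraries held 12770, 9254, 12860 and 13530 CPM, and with TG 8078, 8871, 6190 and 7611 CPM. LNCaP siCTRL libraries held 9761, 10910, 10020 and 10420 CPM, and with TG 7122, 7940, 7456 and 5904 CPM. No TG library reached the lowest control library of its line, although C4-2B siCTRL replicate 2, one of the libraries set apart above, was the lowest of its group. Without the libraries that follow length, 2 C4-2B controls at 12770 and 12860 CPM stood against 2 TG libraries at 7611 and 8078 CPM, and LNCaP TG libraries at 7122 and 7456 CPM. As a share of all counts the members made up 1.23% ± 0.233 (SD, n = 4) in C4-2B siCTRL and 0.825% ± 0.16 with TG. In LNCaP the shares were 0.931% ± 0.046 and 0.685% ± 0.0937. Fewer cells and less RNA per cell cannot be told apart in bulk RNA, and a share says nothing of the total.

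**Figure D1:**
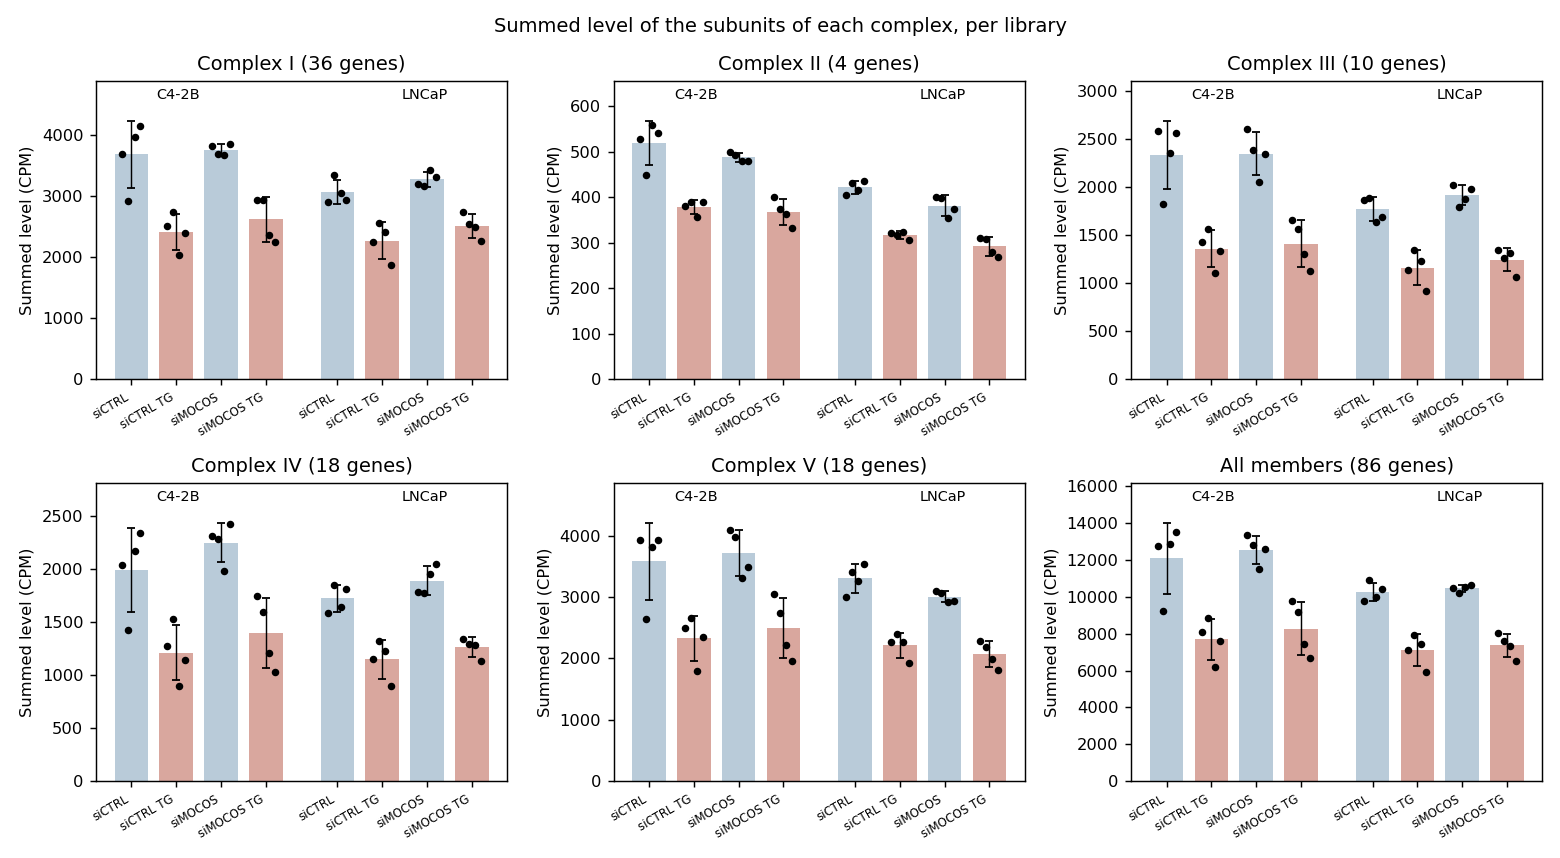
Summed level in CPM of all 86 members and of each complex in the 8 groups, with bars at the mean, error bars of 1 SD and points for the 4 libraries. In both lines, in siCTRL as in siMOCOS cells, the TG bars stand below the bars without TG in each panel.

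The first question was which subunits TG changed in siCTRL cells. Of the 86 members, 80 had enough counts to be tested in each line, and changes count as called where edgeR's quasi-likelihood test gave a Benjamini-Hochberg adjusted p under 0.05 over all genes of the line's fit. In C4-2B, 51 of 80 fell and 0 rose, where 19.3% of all genes tested fell and 21.2% rose. Their median log2 change was -0.68, against -0.01 over all genes tested, and 80 of 80 were below 0. LNCaP showed 48 that fell and 0 that rose, where 25.1% of all genes fell and 24.6% rose. There the median was -0.47, against -0.04 over all genes, and 77 of 80 were below 0. Between the lines 39 members fell in both, which is 76.5% of the C4-2B list and 81.2% of the LNCaP list, and 20 were called in neither. The overlap over all genes is not given, here or below, so these overlaps are not shown to be particular to the members. The C4-2B count moved to 33 without siCTRL replicate 3, to 27 without siCTRL replicate 4 and to 33 without TG replicate 3. For fits that leave out 1 library, the share of all genes called is not given, here or below. Without the libraries that follow transcript length the C4-2B count was 23, where 7.67% of all genes fell, and the median was -0.61. LNCaP then had 32 that fell and 1 that rose, where 16.9% of all genes fell and 3027 of 14098 rose. Its median was -0.41. By complex, in order from I to V, 7, 1, 4, 5 and 6 members then fell in C4-2B (medians -0.54, -0.36, -0.65, -0.83 and -0.58) and 10, 1, 3, 7 and 11 in LNCaP (medians -0.35, -0.19, -0.38, -0.48 and -0.49).

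**Figure D2:**
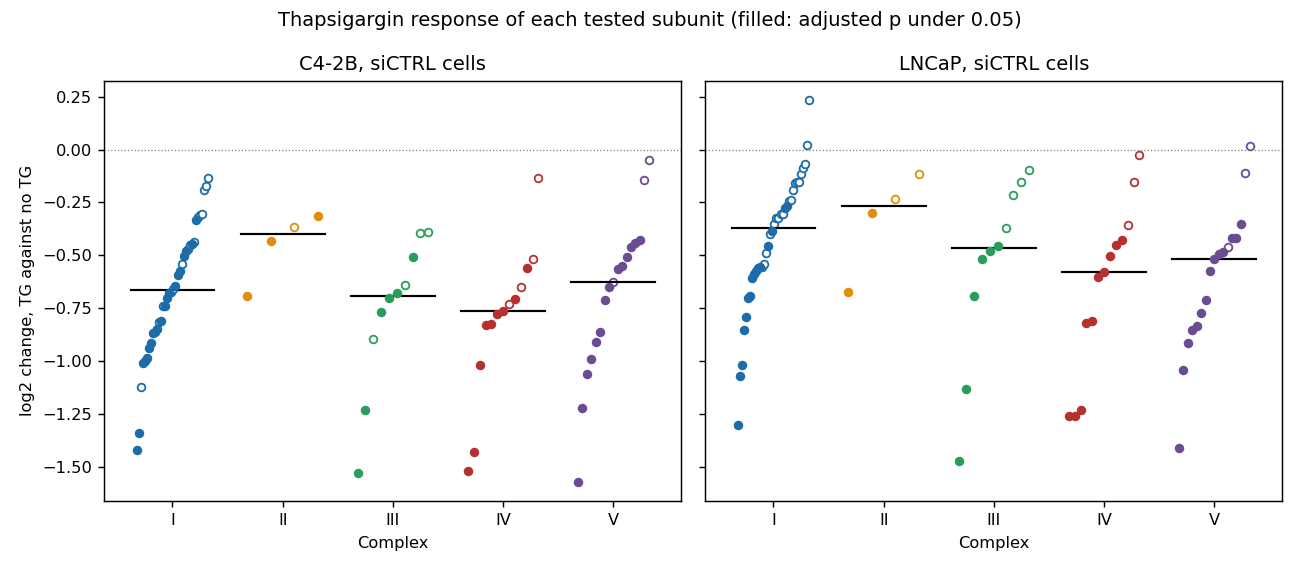
Log2 change with TG in siCTRL cells for each tested subunit, by complex and line, with filled points for subunits at an adjusted p under 0.05 and a black line at the median of the complex. Nearly all points lie below 0, and the complex II medians of -0.40 in C4-2B and -0.27 in LNCaP lie nearest to it.

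Complex I had 36 tested subunits, of which 19 fell in C4-2B and 16 in LNCaP, with median log2 changes of -0.67 and -0.37. Its core, which carries the flavin and the iron-sulfur clusters, has 7 nuclear subunits. Of these, 1 fell in each line, in C4-2B NDUFV2, by 0.50 on the log2 scale (adjusted p = 0.0222). Of the 29 accessory subunits among the members, 18 fell in C4-2B and 15 in LNCaP, with medians of -0.68 and -0.46 against -0.45 and -0.15 for the core. The median transcript length was 1039 bases in the core and 750 in the accessory subunits, and the difference between the classes was not tested.

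NDUFB3, an accessory subunit of the membrane arm (hg38 chr2:201072001-201085750), showed one of the greatest falls of the complex. Its 4 siCTRL libraries in C4-2B stood at 129, 87.0, 110 and 121 CPM and the TG libraries at 45.4, 48.0, 34.5 and 39.6 CPM. In LNCaP they stood at 94.3, 97.5, 81.8 and 90.8 CPM and at 45.5, 47.3, 47.6 and 33.0 CPM. The groups did not overlap in either line. In C4-2B NDUFB3 fell by 1.42 on the log2 scale (SE 0.217, adjusted p = 6.76e-05), and its log2 change in LNCaP was -1.07 (SE 0.128, adjusted p = 2.07e-06). NDUFA2, an accessory subunit of the peripheral arm with a thioredoxin-like fold, stood lower, at means of 12.5 CPM in C4-2B siCTRL and 9.02 CPM in LNCaP siCTRL, and fell by 1.34 and 1.30 on the log2 scale (adjusted p = 0.00326 and 0.000659). NDUFS5, an accessory subunit of the intermembrane space side, fell by 0.98 and 1.02 (adjusted p = 1.84e-05 and 1.3e-06). NDUFS1, the largest core subunit, held 274, 268, 224 and 216 CPM in C4-2B siCTRL and 211, 201, 248 and 204 CPM with TG, so the groups overlapped (log2 -0.19, adjusted p = 0.201). In LNCaP its siCTRL libraries at 357, 327, 332 and 342 CPM lay above all TG libraries at 291, 285, 309 and 303 CPM, with a log2 change of -0.19 that missed the threshold (adjusted p = 0.0609).

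Complex II, succinate dehydrogenase, has no mitochondrially encoded subunit. SDHA binds FAD and oxidises succinate, SDHB carries the iron-sulfur clusters, and SDHC and SDHD anchor both in the membrane and bind ubiquinone. Of the 4, 3 fell in C4-2B and 2 in LNCaP. SDHC libraries stood at 182, 177, 163 and 164 CPM in C4-2B siCTRL and at 101, 97.4, 130 and 97.6 CPM with TG. LNCaP had 170, 176, 164 and 199 CPM and 113, 104, 111 and 115 CPM, so that the groups lay apart in both lines. SDHC changed by log2 -0.69 (adjusted p = 0.000338) and -0.68 (adjusted p = 5.92e-06), but not past the threshold once transcript length and GC content were corrected for (-0.14 and -0.21, adjusted p = 0.59 and 0.141). SDHD fell too, at -0.31 in C4-2B (adjusted p = 0.0169) and -0.30 for LNCaP (adjusted p = 0.00736), and lost its call under 6 and 5 of 17 alternatives. SDHB fell by 0.43 in C4-2B (adjusted p = 0.0276, lost under 6 of 17) and stood at -0.12 in LNCaP (adjusted p = 0.513). SDHA was at -0.37 and -0.23, and neither value passed (adjusted p = 0.102 and 0.0805).

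In complex III 6 of 10 subunits fell in each line, with medians of -0.69 and -0.47. The hinge protein UQCRH, which sits at the docking site of cytochrome c (hg38 chr1:46303698-46316776), held 649, 502, 572 and 699 CPM in C4-2B siCTRL and 280, 314, 202 and 239 CPM with TG. LNCaP libraries held 520, 590, 512 and 498 CPM and 231, 288, 271 and 180 CPM. Every TG library lay below every control library of its line. The log2 change was -1.23 (SE 0.19, adjusted p = 7.42e-05) and -1.13 (SE 0.129, adjusted p = 1.3e-06). UQCRHL, its near-identical copy (hg38 chr1:15807374-15807649), was counted at means of 8.6 and 7.21 CPM in the controls and fell by 1.53 and 1.47, but reads of the pair may have been split between the copies and its value is uncertain. Of the redox subunits, CYC1, which carries the heme c, fell by 0.68 in C4-2B (adjusted p = 0.045, lost under 10 of 17 alternatives) and was at -0.15 in LNCaP (adjusted p = 0.488). UQCRFS1, the Rieske iron-sulfur protein, was at -0.40 and -0.22 and did not pass (adjusted p = 0.17 and 0.152).

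Among the 13 tested members of complex IV 9 fell in C4-2B and 10 in LNCaP, with medians of -0.77 and -0.58. COX6B1, which faces the intermembrane space (hg38 chr19:35648323-35658782), stood at 261, 177, 244 and 276 CPM in C4-2B siCTRL and at 87.2, 106, 63.8 and 77.5 CPM with TG. In LNCaP it stood at 152, 160, 137 and 201 CPM and at 81.5, 79.3, 66.1 and 43.6 CPM. No libraries overlapped, and the log2 change was -1.52 (SE 0.246, adjusted p = 0.000117) and -1.26 (SE 0.171, adjusted p = 8.7e-06). COX7B, a small membrane subunit (hg38 chrX:77899468-77907376), held 209, 132, 168 and 197 CPM in C4-2B controls and 71.7, 72.3, 48.9 and 69.7 CPM with TG. LNCaP controls at 170, 173, 158 and 176 CPM varied little, as did the TG libraries at 76.8, 68.4, 70.4 and 66.1 CPM. COX7B fell by 1.43 (SE 0.213, adjusted p = 5.01e-05) and 1.26 (SE 0.0867, adjusted p = 2.79e-09). NDUFA4 fell by 0.78 and 0.82 (adjusted p = 0.00437 and 8.94e-06), and COX4I1, the ubiquitous form of subunit 4, by 0.43 in LNCaP (adjusted p = 0.00768, lost under 5 of 17 alternatives), with -0.52 in C4-2B missing the threshold (adjusted p = 0.062).

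COX7A2L stood among the members with the smallest change. Its C4-2B libraries stood at 211, 181, 180 and 205 CPM without TG and at 172, 213, 166 and 160 CPM with TG. LNCaP libraries stood at 200, 215, 200 and 238 CPM and at 224, 230, 221 and 162 CPM. The groups overlapped in both lines, and the log2 change was -0.14 (SE 0.124, adjusted p = 0.405) and -0.02 (SE 0.102, adjusted p = 0.867). Several forms that are typical of muscle, lung or testis were absent or nearly so: COX6A2, COX7A1 and COX8C had 0 counts in all 32 libraries, and COX4I2 and COX6B2 never more than 1 count. COX7B2, a testis-type form, was measured at 1.97 CPM in C4-2B controls and 0.974 CPM with TG, and had log2 changes of -1.02 there (adjusted p = 0.00521) and -1.23 for LNCaP (adjusted p = 0.00502). ATP5L2 of complex V reached at most 0.463 CPM and was not tested.

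Complex V had the highest share of called members, 14 of 17 in each line, with medians of -0.63 and -0.52. ATP5S and ATP5SL were among those not called, at -0.14 and -0.05 in C4-2B (adjusted p = 0.47 and 0.927) and 0.02 and -0.11 in LNCaP (adjusted p = 0.917 and 0.779). Without the libraries that follow length, the share of complex V was highest in LNCaP only, at 11 of 17. In C4-2B it was then 6 of 17, beside 4 of 10 in complex III and 5 of 13 in complex IV. ATP5G1, which encodes one of 3 precursors of the c ring subunit (hg38 chr17:48892787-48895871), had the lowest log2 change of the members that averaged at least 5 CPM over the TG and control libraries of a line, a limit that UQCRHL missed in LNCaP. C4-2B libraries held 92.0, 67.9, 86.2 and 98.2 CPM without TG and 28.1, 37.8, 23.6 and 27 CPM with TG. Those of LNCaP held 79.7, 67.8, 81.3 and 92.0 CPM and 33.7, 36.8, 28.6 and 21.3 CPM. The groups were far apart, and ATP5G1 fell by 1.57 (SE 0.18, adjusted p = 3.48e-06) and 1.41 (SE 0.163, adjusted p = 1.33e-06). All 3 genes encode the same mature c subunit. Per kilobase of transcript, the mean level without and with TG in C4-2B was 160 and 54.0 CPM for ATP5G1, 212 and 143 CPM for ATP5G2, and 118 and 62.9 CPM for ATP5G3. In LNCaP the levels were 149 and 55.8, 258 and 173, and 117 and 64.7 CPM per kilobase. ATP5G3 fell by 0.91 and 0.85 (adjusted p = 0.00307 and 5.85e-06) and ATP5G2 by 0.56 and 0.57 (adjusted p = 0.0419 and 0.00419, lost under 9 and 3 of 17 alternatives). Of the catalytic head, ATP5A1 fell by 0.51 and 0.42 (adjusted p = 0.0107 and 0.00106) and ATP5B by 0.43 and 0.35 (adjusted p = 0.0247 and 0.00923). The call of ATP5B was lost under 7 and 2 of 17 alternatives. ATP5G1, ATP5G3, COX6B1, COX7B, NDUFA4, NDUFA5, NDUFB3, UQCRH and UQCRHL kept their calls in both lines under all 17.

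**Figure D3:**
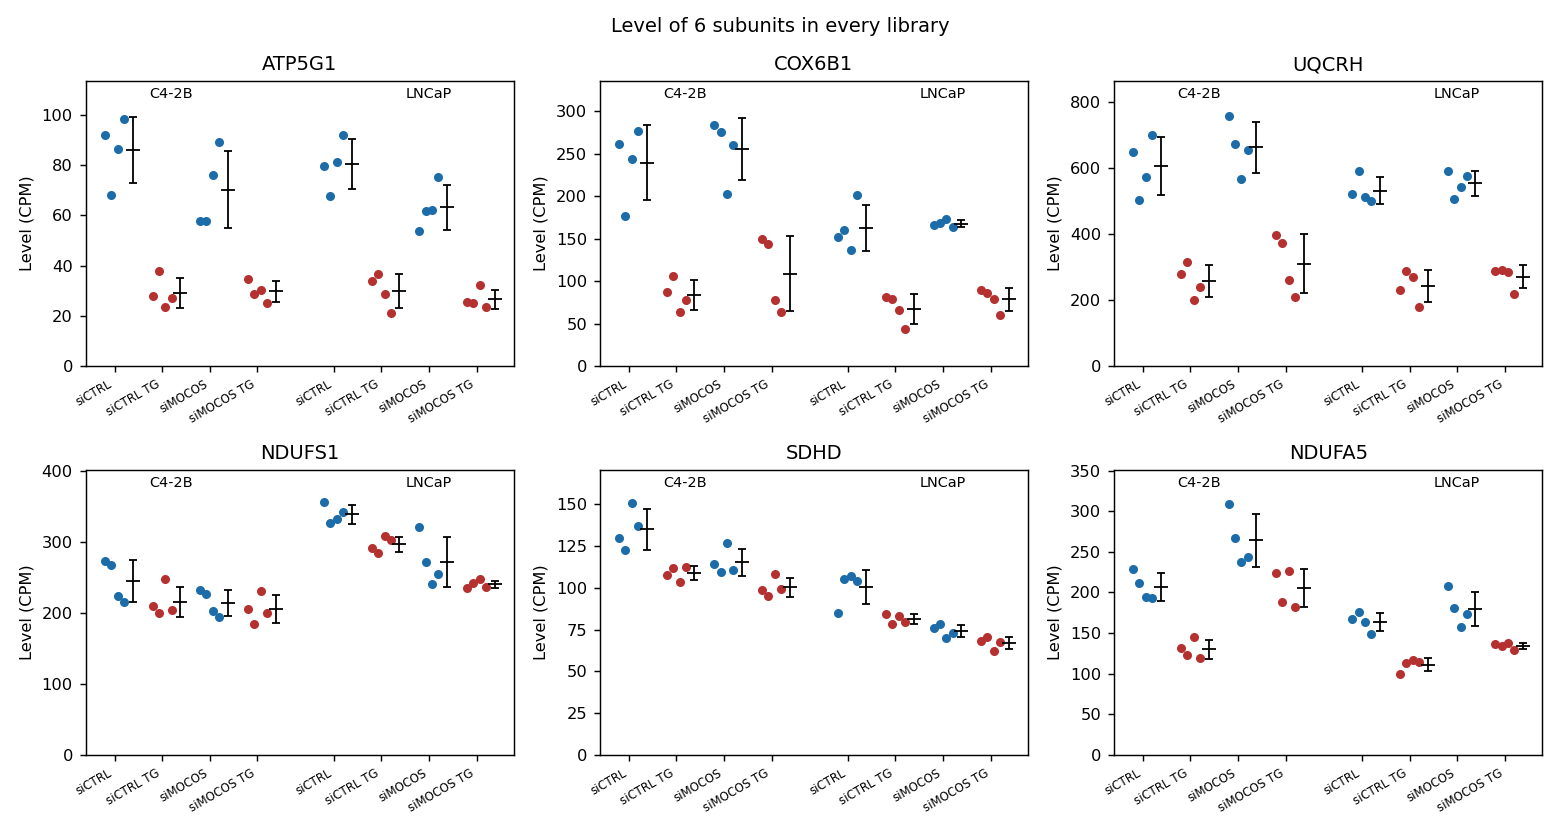
Level in CPM of ATP5G1, COX6B1, UQCRH, NDUFS1, SDHD and NDUFA5 in all 32 libraries by group, with points for libraries and bars for the mean and 1 SD. ATP5G1, COX6B1 and UQCRH separate with TG in both lines, whereas the TG and control libraries of NDUFS1 overlap in C4-2B.

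Since some libraries followed transcript length and most members are short, the calls were read by length. Among members under 1000 bases, 38 of 52 fell in C4-2B (73.1%, median -0.75), against 26.0% of the other genes of that length (median -0.28). Among members of at least 1000 bases 13 of 28 fell (46.4%, median -0.46), against 19.1% of the others (median 0.01). In LNCaP the shares were 67.3% (35 of 52, median -0.55) against 29%, and 46.4% (13 of 28, median -0.29) against 25.3%. With offsets for length and GC content, which also remove any true difference between groups that follows length, 34 members fell in C4-2B (median -0.35) and 30 in LNCaP (median -0.23), where 21.1% and 25.0% of all genes fell. In LNCaP 1 then rose, NDUFS3, a core subunit of complex I (log2 0.34, adjusted p = 0.00631), where 3691 of 13806 genes rose. With the offsets 26 members fell in both lines, 8 in complex I, 0 in complex II, 4 in complex III, 5 in complex IV and 9 in complex V. Of them 25 were among the 39 above. The other was NDUFS1, at -0.33 and -0.26 (adjusted p = 0.00363 and 0.00219). ATP5G1 was at -1.04 and -0.99 and COX7B at -1.19 and -1.06. The part of transcript length in the other falls was not tested.

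**Figure D4:**
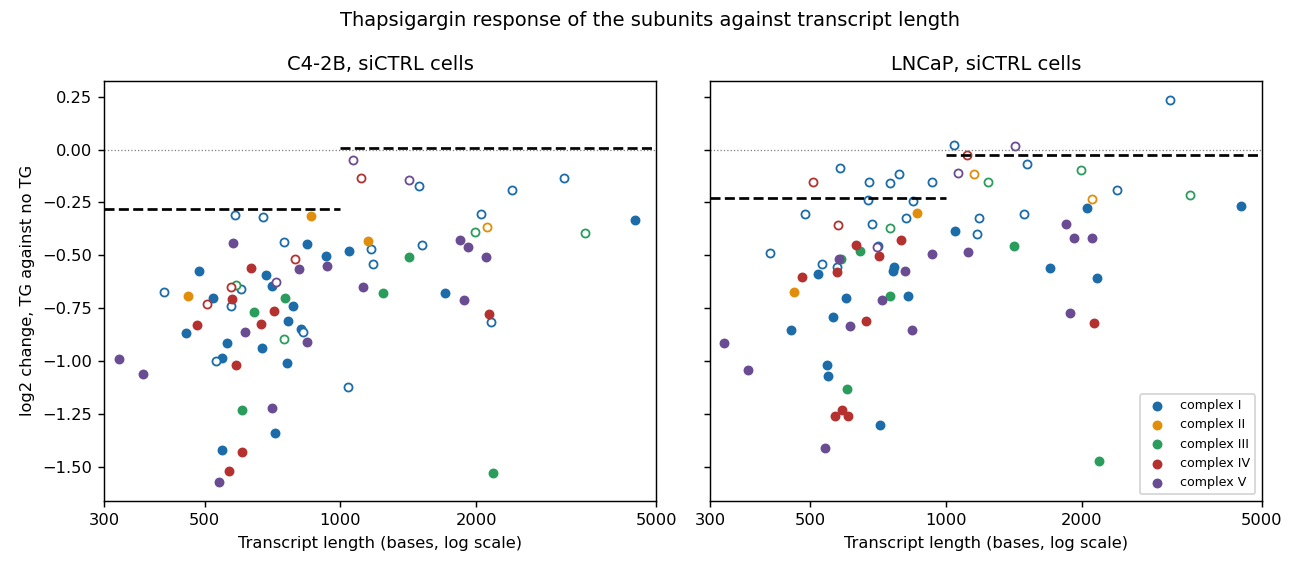
Log2 change with TG in siCTRL cells against transcript length in bases (log axis) for the tested members of each line, with dashed lines at the median of the other genes under and at least 1000 bases. Members lie below the dashed line of their length class more often than above it, with members' medians of -0.75 and -0.46 in C4-2B against -0.28 and 0.01.

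The promoters of the members were searched for 3 short motifs that are known from genes of the respiratory chain. These were GCGCATGC for nuclear respiratory factor NRF1, CCGGAAG for ETS factors such as GABPA, and AAGATGGC for YY1, on both strands, in the 250 bases before and 50 after the RefSeq start. The NRF1 motif can overlap its own reverse complement, and an ETS match can run into a YY1 match. Of the 86 members 68 were found in the table of promoters (GRCh38.p14). NRF1 letters occurred in 13 (19.1%), against 4.09% of 17102 promoters. These were all promoters of that length whose genes are in the deposited data, whether or not the genes had enough counts to be tested. ETS letters occurred in 19 (27.9%, against 13.6%) and YY1 letters in 11 (16.2%, against 3.8%). The promoters of 4 members are shown over the 250 bases before the start, with matches in capitals: ATP5G1 as the member with the lowest log2 change among the promoters shown, ATP5J, a peripheral stalk subunit, as one with all 3 motifs, SDHD for the NRF1 motif in both orientations, and UQCRH for ETS alone.
ATP5G1: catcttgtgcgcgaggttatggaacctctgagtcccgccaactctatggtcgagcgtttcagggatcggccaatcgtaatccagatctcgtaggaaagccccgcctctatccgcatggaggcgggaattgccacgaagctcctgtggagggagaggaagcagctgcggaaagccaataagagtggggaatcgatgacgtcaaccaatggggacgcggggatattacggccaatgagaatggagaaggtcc
ATP5J: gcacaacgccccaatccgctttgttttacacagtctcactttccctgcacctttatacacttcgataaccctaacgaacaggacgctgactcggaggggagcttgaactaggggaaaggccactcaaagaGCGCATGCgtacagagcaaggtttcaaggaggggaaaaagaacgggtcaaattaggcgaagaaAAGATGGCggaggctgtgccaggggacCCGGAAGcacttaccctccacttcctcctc
SDHD: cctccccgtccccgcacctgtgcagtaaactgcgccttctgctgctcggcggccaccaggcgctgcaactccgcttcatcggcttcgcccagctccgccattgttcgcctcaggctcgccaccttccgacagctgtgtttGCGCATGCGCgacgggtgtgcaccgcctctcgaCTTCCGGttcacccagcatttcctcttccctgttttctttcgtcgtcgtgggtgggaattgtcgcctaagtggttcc
UQCRH: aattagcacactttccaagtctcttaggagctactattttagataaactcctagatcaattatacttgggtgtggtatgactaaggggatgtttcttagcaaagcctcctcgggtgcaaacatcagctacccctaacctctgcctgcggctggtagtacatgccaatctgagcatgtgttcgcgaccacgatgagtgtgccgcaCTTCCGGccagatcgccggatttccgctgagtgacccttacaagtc
They lie at chr17:48892537-48892786 on the + strand (ATP5G1), chr21:25735055-25735304 on the - strand (ATP5J), chr11:112086623-112086872 on the + strand (SDHD) and chr1:46303448-46303697 on the + strand (UQCRH). In ATP5J the NRF1 letters start 120, the YY1 letters 57 and the ETS letters 30 bases before the start. In SDHD the NRF1 letters start 110 bases before the start, overlap their reverse complement and are followed by the reversed ETS letters from 77 bases. UQCRH has the reversed ETS letters from 46 bases, and none of the letters searched are in the ATP5G1 window. Members with and without the NRF1 letters fell with TG in 10 of 13 and 29 of 52 cases in C4-2B, and in 7 of 13 and 30 of 52 in LNCaP. For ETS the counts were 10 of 19 and 29 of 46, and 13 of 19 and 24 of 46, and for YY1 5 of 11 and 34 of 54, and 5 of 11 and 32 of 54. A match describes letters only, and these counts were not tested.

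Genes that build or regulate the complexes were called in both directions, and their counts are to be read against the 19.3% of all genes that fell and 21.2% that rose in C4-2B, and 25.1% and 24.6% in LNCaP. Of 28 assembly factors of complex IV, 7 fell and 2 rose in C4-2B, and 11 fell and 3 rose in LNCaP. PET100 had log2 changes of -1.77 (adjusted p = 9.85e-05) and -1.63 (adjusted p = 2.19e-07), whereas COX19, a copper-handling factor, rose by 0.94 (adjusted p = 0.000274) and 1.12 (adjusted p = 3.44e-06). Of 18 assembly factors of complex I, 2 fell in each line, and 1 rose in C4-2B and 3 in LNCaP. The other assembly factor lists had few called genes: complex II (0 and 2 of 4 fell), complex III (1 fell in each line and 1 rose in C4-2B, of 7) and complex V (1 and 3 of 6 fell). The lists of complexes I and V include ATP5SL and ATP5S, which are also counted among the members. Of 7 further subunits and carriers 3 and 2 fell, among them SLC25A3, the phosphate carrier, at -1.48 (adjusted p = 1.56e-05) and -0.88 (adjusted p = 1.19e-05). Of 16 regulators 5 and 6 fell and 3 rose in each line. NRF1 averaged 20.9 ± 2.42 CPM (SD, n = 4) in C4-2B and 52.7 ± 4.41 CPM with TG (log2 1.33, adjusted p = 6.06e-07), whereas LNCaP had 21.9 ± 3.38 and 118 ± 4.92 CPM (log2 2.44, adjusted p = 1.88e-09). The coactivator PPARGC1A rose by 1.77 (adjusted p = 0.000577) and 1.49 (adjusted p = 0.0155), while its relative PPARGC1B fell by 2.32 in each line (adjusted p = 5.02e-08 and 9.71e-09). GABPA was at -0.12 and -0.03 and YY1 at 0.05 and -0.10, none past the threshold (adjusted p = 0.784 and 0.945, 0.789 and 0.457).

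Knockdown of MOCOS called few members in unstressed cells. In C4-2B 2 fell and 0 rose, where 8.14% of all genes fell and 9.09% rose, and the members' median log2 change was -0.04. They were SDHB at -0.45 (adjusted p = 0.0443) and NDUFA9, an accessory subunit of complex I, at -0.32 (adjusted p = 0.0425), and each lost its call under 10 of 15 alternatives. LNCaP had 4 that fell and 3 that rose, where 9.73% and 6% of all genes did, with a median of 0.03. The share of members called was thus below that of all genes in each direction. Those that rose were NDUFV1 (log2 0.61, adjusted p = 0.0458), NDUFB9 (log2 0.53, adjusted p = 0.0246) and COX6C (log2 0.46, adjusted p = 0.0463), and their count was 0 without any one of siCTRL replicates 1, 3 and 4 or siMOCOS replicates 3 and 4.

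The members that fell in unstressed LNCaP knockdown cells were ATP5B, SDHD, NDUFS1 and ATP5H, the d subunit of the stalk of ATP synthase (log2 -0.37, adjusted p = 0.0225). SDHD held 85.1, 106, 107 and 104 CPM in siCTRL and 75.8, 78.5, 70.1 and 73.0 CPM in siMOCOS libraries, with no overlap (log2 -0.46, SE 0.0864, adjusted p = 0.00163). ATP5B held 622, 629, 655 and 821 CPM against 550, 518, 437 and 492 CPM (log2 -0.47, SE 0.105, adjusted p = 0.00515). NDUFS1 held 357, 327, 332 and 342 CPM against 322, 272, 241 and 255 CPM (log2 -0.34, SE 0.082, adjusted p = 0.00878). In each of these the highest siMOCOS library lay below the lowest siCTRL library, and the calls held under all 15 alternatives. SDHB was at -0.41 and just missed the threshold (adjusted p = 0.0552). The same knockdown in C4-2B gave SDHD -0.24 (adjusted p = 0.107).

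**Figure D5:**
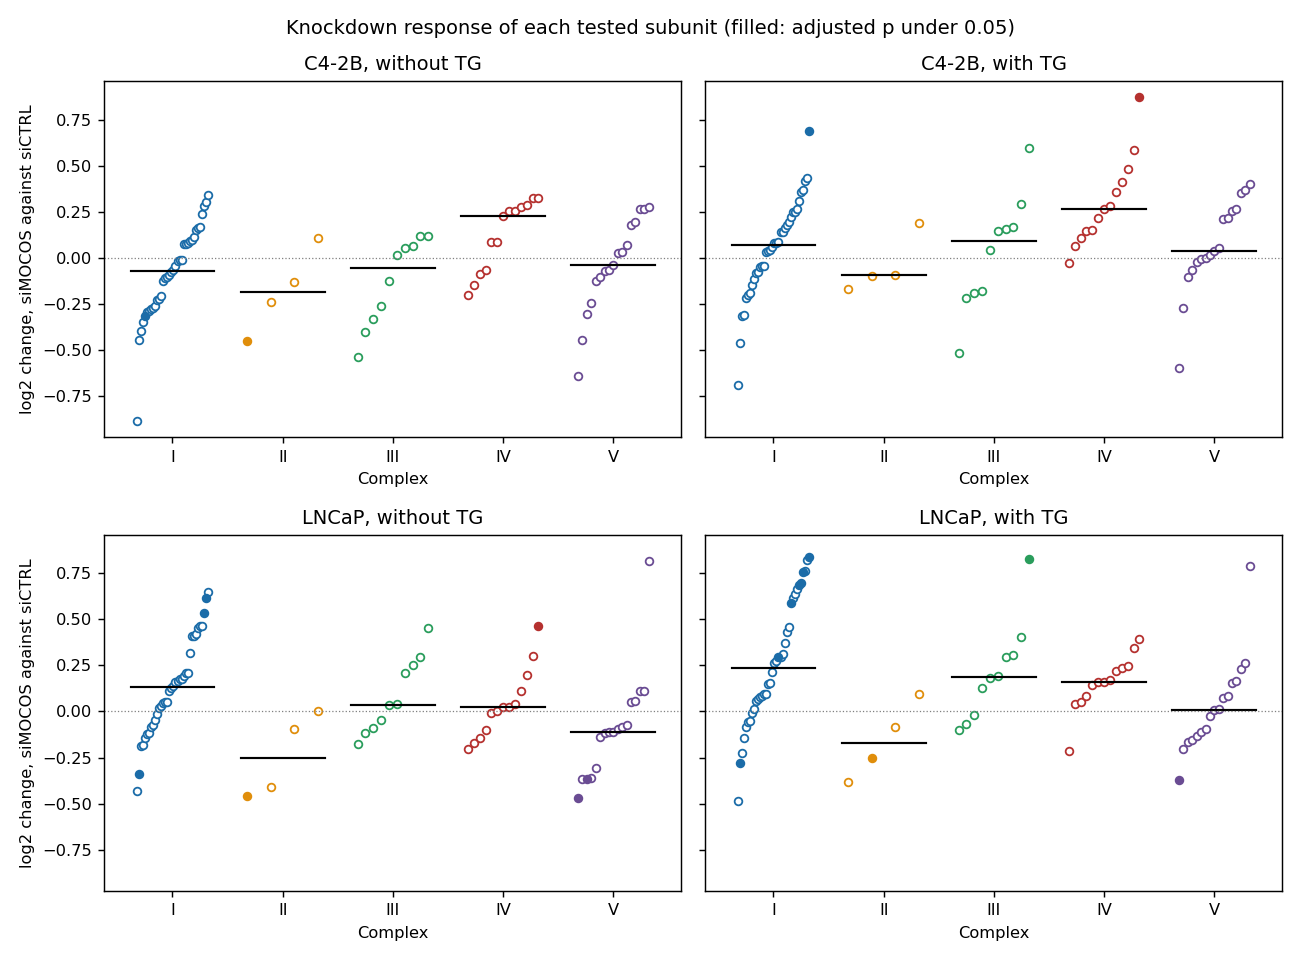
Log2 change with MOCOS knockdown for each tested subunit, by complex, line and drug, with filled points at an adjusted p under 0.05 and a black line at the median. The points scatter around 0, with few filled in any panel: 2 in C4-2B without TG, 7 in LNCaP without TG, 2 in C4-2B with TG and 10 in LNCaP with TG.

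Under TG the knockdown raised 2 members in C4-2B and lowered 0, where 9.21% and 7.6% of all genes rose and fell, with a median of 0.08. NDUFA5, an accessory subunit of the peripheral arm of complex I (hg38 chr7:123536997-123601651), stood at 131, 123, 145 and 120 CPM in siCTRL with TG and at 224, 189, 227 and 182 CPM in siMOCOS with TG. The groups did not overlap (log2 0.69, SE 0.116, adjusted p = 0.000432), and the call held under all 15 alternatives. Without TG its siMOCOS libraries at 309, 266, 237 and 243 CPM also lay above siCTRL at 229, 212, 194 and 193 CPM (log2 0.34, adjusted p = 0.0522). The other was COX7B2 (log2 0.87, adjusted p = 0.0273, lost under 6 of 15), whose siMOCOS library 3 stood far above its group. For 0 members lowered, the unadjusted p was under 0.05 for 1, UQCRC1, and DESeq2 and limma voom also called 0.

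LNCaP with TG had 7 members that rose with knockdown and 3 that fell, where 11.7% and 10.2% of all genes did, with a median of 0.14. Of those that rose 6 belong to complex I: NDUFA13 (log2 0.84, adjusted p = 0.0138), NDUFA3 (0.76, adjusted p = 0.0268), NDUFA11 (0.70, adjusted p = 0.0452), NDUFB4 (0.69, adjusted p = 0.00172), NDUFV1 (0.59, adjusted p = 0.0436) and NDUFA5 (0.30, adjusted p = 0.023). The other was UQCR10 of complex III (0.83, adjusted p = 0.0217). NDUFA13, which is also known as GRIM-19, held 43.9, 53.2, 45.6 and 57.1 CPM in siCTRL with TG and 115, 88.0, 66.4 and 82.1 CPM in siMOCOS with TG, with no overlap but a wide spread. Their number moved to between 1 and 2 when siCTRL with TG replicate 1, 3 or 4 or siMOCOS with TG replicate 1 or 2 was left out, to 3 with the length and GC offsets and to 1 without the libraries that follow length. ATP5B (-0.37, adjusted p = 0.0174), NDUFS1 (-0.28, adjusted p = 0.0213) and SDHD (-0.26, adjusted p = 0.0412) fell, and were thus called lower with knockdown both with and without TG. The comparisons use different libraries. ATP5B kept this call under all 15 alternatives, NDUFS1 lost it under 2 and SDHD under 7.

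In knockdown cells TG lowered 36 members in each line and raised 0, where the shares of all genes that fell and rose were 17.2% and 20.7% for C4-2B, and 21.9% and 25.1% for LNCaP. The median was -0.52 in C4-2B and -0.32 in LNCaP. By complex, in order from I to V, 14, 1, 5, 5 and 11 fell in C4-2B and 12, 1, 4, 7 and 12 in LNCaP, and 30 fell in both lines. With length and GC offsets 28 fell in C4-2B (median -0.31) and 29 in LNCaP (median -0.19). Over all genes 2944 of 14127 and 3464 of 13806 then fell. The C4-2B count without offsets was 23 when siMOCOS with TG replicate 3 was left out and 22 when replicate 4 was. In that group the members summed to 9779, 9202, 7452 and 6688 CPM in replicates 1 to 4, and the columns name no siRNA. ATP5G1 was at -1.21 (adjusted p = 4.76e-05) and -1.20 (adjusted p = 9.05e-06), and COX6B1 at -1.19 (adjusted p = 0.00097) and -1.04 (adjusted p = 6.75e-05). NDUFA5 fell by 0.33 in C4-2B knockdown cells (adjusted p = 0.0332, lost under 5 of 15 alternatives), against 0.68 in siCTRL cells. The interaction (how far the knockdown effect under TG differs from that in unstressed cells) was called for 0 members in either line by edgeR, DESeq2 and limma voom. Over all genes 0.0283% and 0.0425% were called higher and lower in C4-2B and 0.00724% and 0% in LNCaP. The unadjusted p was under 0.05 for 1 member in C4-2B, NDUFA5 (log2 0.35, adjusted p = 0.705), and for 0 in LNCaP.

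At baseline the lines themselves differed. In siCTRL cells without TG 27 members were lower and 3 higher in LNCaP than in C4-2B, where 20.1% and 21.1% of all genes were, with a median log2 of -0.37. The lower ones comprised 15 of 36 in complex I, 3 of 4 in complex II, 4 of 10 in complex III, 3 of 13 in complex IV and 2 of 17 in complex V. NDUFS7, a core subunit with an iron-sulfur cluster, held 2.4, 4.33, 8.88 and 7.83 CPM in C4-2B and 1.52, 1.92, 2.38 and 0.833 CPM in LNCaP (log2 -1.80, SE 0.546, adjusted p = 0.00871). Its levels were low and spread widely in C4-2B, although the groups just failed to overlap, and its call was lost under 1 of 14 alternatives. CYC1 held 40.8, 58.5, 83.5 and 79.4 CPM against 28.1, 36.6, 38.4 and 29.5 CPM (log2 -0.98, SE 0.229, adjusted p = 0.000996). The GC contents of NDUFS7 and CYC1 were 66.8% and 61.8%. Both were lower in C4-2B replicates 1 and 2, whose correlations with GC content were -0.525 and -0.124, than in replicates 3 and 4 (0.323 and 0.416). The part of GC content in these differences was not tested. SDHB was lower by a log2 of -0.69 (adjusted p = 0.000268), SDHA by -0.52 (adjusted p = 0.00539) and SDHD by -0.43 (adjusted p = 0.000189). NDUFB7 and UQCR10 were at -1.38 (adjusted p = 0.0105) and -1.10 (adjusted p = 0.0075), each with overlapping libraries. Higher in LNCaP were NDUFA10 (log2 0.48, adjusted p = 0.0149), NDUFS1 (0.47, adjusted p = 0.000311) and NDUFA4 (0.46, adjusted p = 0.0216). Without the libraries that follow length 34 were lower and 1 higher, NDUFS1, where 2345 and 2162 of 14979 genes were. The median was then -0.45, and 24 of the 27 were among the lower ones. The number lower was 42 without C4-2B siCTRL replicate 2, and the number higher was 1 without LNCaP siCTRL replicate 4. With length and GC offsets 32 were lower and 4 higher, where 3154 and 2871 of 14628 genes were, with a median of -0.27.

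Whether the TG response of siCTRL cells differed between the lines was tested in 1 fit of all 32 libraries. No member was called, 0 in either direction by edgeR, DESeq2 and limma voom, where 0.417% of all genes were called higher in LNCaP and 0.431% lower. The unadjusted p was under 0.05 for 1 member, NDUFB4, an accessory subunit of complex I (log2 0.69, adjusted p = 0.381). Without the libraries that follow length 0 were called as well. The larger number of calls in C4-2B is therefore not shown to be a difference between the lines.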

How the data were processed

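Polyadenylated, strand-specific RNA-seq libraries of LNCaP and C4-2B were analysed from 1 table of 32 columns. Its values are expected counts deposited by the authors, length-scaled per the file name, not divided by library size, and they were rounded. The submitters' processing notes name hg38, Salmon 1.5.2, STAR 2.6.1d, FastQC 0.11.9, cutadapt 3.4 and Trim Galore 0.6.7. The gene annotation is not given in the sources used here. Each line was fitted with edgeR 4.0.16 (R 4.3.3; filterByExpr, TMM, quasi-likelihood F-test; 16 libraries, 12 residual degrees of freedom, 14127 genes for C4-2B, 13806 for LNCaP), and comparisons of lines with all 32 (14628 genes). Calls rest on a Benjamini-Hochberg adjusted p under 0.05 over all genes. The SE was taken as the ratio of the unshrunken log2 value to the root of the F statistic, while the log2 change printed is shrunken. DESeq2 1.42.0, limma voom (limma 3.58.1), RLE factors, no filter, length and GC offsets, a replicate block, a joint fit and leaving out libraries were alternatives. The scripts were tested on simulated counts. Levels are CPM with TMM factors over all 32 libraries, and per kilobase by median transcript length. Length and GC content are medians over the basic GENCODE v29 transcripts of a gene, known for 94.0% of genes tested in C4-2B, 94.4% in LNCaP and all members.

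The columns of knockdown libraries name no siRNA, so the libraries of a line and drug form 1 group. The series calls the replicates biological, and nothing further ties them to separate cultures. Full values go to the 3 called members with the lowest and the highest log2 change of a comparison at a mean of at least 5 CPM (2 for line comparisons and interactions), to isoform sets and to redox and catalytic subunits. Other named members were chosen after their values were seen. Members and lists were chosen with earlier results of these data known. Promoter sequences and gene coordinates are from RefSeq (GRCh38.p14), whose UQCRHL holds only the coding part. Mitochondrially encoded genes and hemoglobin genes were not analysed here. The values of 1 member are not reported here.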

Additional observations from a re-analysis of the deposited data

Results flagged for a closer look

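In 13 of 296 checked groups of 4 libraries, 1 library stood apart by Dixon's criterion (its gap to the nearest library over the group's range), and chance alone gives about 1 in 20. In C4-2B siCTRL, replicate 2 was lowest in the summed level of complex V (2640 CPM, others 3810 to 3930) and in NDUFA10 (40.9 CPM, others 64.6 to 68.4). In C4-2B siCTRL with TG, replicate 3 was lowest in COX7B (48.9 CPM, others 69.7 to 72.3), NDUFA13 (30.7 CPM, others 65.1 to 68.9) and SDHA (95.1 CPM, others 132 to 138), and highest in SDHC (130 CPM, others 97.4 to 101). Both libraries are among those that follow transcript length. In LNCaP siCTRL with TG, replicate 4, another of these, was lowest in COX7A2L (162 CPM, others 221 to 230) and NDUFB3 (33.0 CPM, others 45.5 to 47.6).

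The other values apart were COX7B2 in C4-2B siMOCOS with TG replicate 3 (2.71 CPM, others 1.4 to 1.48), ATP5A1 in LNCaP siMOCOS replicate 3 (376 CPM, others 439 to 448), ATP5B in LNCaP siCTRL replicate 4 (821 CPM, others 622 to 655), SDHD in LNCaP siCTRL replicate 1 (85.1 CPM, others 104 to 107) and UQCRH in LNCaP siMOCOS with TG replicate 4 (218 CPM, others 286 to 291).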

How the results depend on the processing

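The members' median log2 change kept its sign in the 4 comparisons of TG with no TG under every alternative. For knockdown without TG in C4-2B it moved from -0.0415 to 0.00389 with limma voom and 0.017 with length and GC offsets, and ranged from -0.158 to 0.0903 with a library left out. With a library left out it ranged from -0.0238 to 0.189 for knockdown with TG in C4-2B, from -0.0124 to 0.0542 for knockdown without TG in LNCaP and from -0.035 to 0.157 for the LNCaP interaction. The number of members lower with TG in C4-2B siCTRL cells was 51, 23 without the 4 libraries that follow length, all of them among the 51, and 27 to 61 when single libraries were left out. The 48 of LNCaP became 30 with length and GC offsets and 34 to 51 with a library left out, and the 0 higher became 1 with offsets, 1 without the length-following libraries and 0 to 1 with a library left out. Knockdown without TG gave 2 lower in C4-2B, which became 1 with limma voom, 0 without the filter, 0 without the length-following libraries and 0 to 2 with a library left out. Its 0 higher became 1 with DESeq2, with offsets and in the joint fit, and 0 to 1 with a library left out. Under TG the 2 higher became 1 without the filter or the length-following libraries and 1 to 6 with a library left out, and the 0 lower became 1 in the joint fit and 0 to 1 with a library left out. In LNCaP the 4 lower without TG became 7 with offsets and 3 to 4 with a library left out. The 3 higher became 5 with offsets, 1 in the joint fit and 0 to 4. Under TG the 7 higher became 3 with offsets, 1 in the joint fit, 1 without the length-following libraries and 1 to 7, and the 3 lower ranged from 2 to 3. TG in knockdown cells gave 22 to 38 lower in C4-2B and 30 to 40 in LNCaP with a library left out. It gave 1 higher in LNCaP without the length-following libraries, where 3315 of 14098 genes were. The 36 lower of C4-2B became 28 with offsets, 46 with DESeq2 and 53 in the joint fit. The 36 lower of LNCaP became 29, 42 and 35. The baseline counts of 27 lower and 3 higher ranged from 20 to 42 and from 1 to 3 with a library left out. They became 34 and 1 without the length-following libraries, and 32 and 4 with length and GC offsets. The cause of these moves was not tested.

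Replicate numbers were used as a block for TG in siCTRL cells. Same-numbered libraries did not deviate together in every pair (correlations of 0.0212, -0.298, -0.333 and 0.14 in C4-2B and -0.0698, 0.223, -0.0618 and 0.0384 in LNCaP). A pairing by number was thus not shown. These few values cannot exclude one, since the deviations of some libraries also follow length or GC content. These fits held only the siCTRL libraries of a line, so their counts also differ from the main ones by the libraries fitted. With the replicate block 26 members were lower in C4-2B, where 15.5% of all genes were. LNCaP had 51 lower and 1 higher, where 26.6% of all genes were lower and 3925 of 13238 higher. With the block and the offsets together 32 were lower in C4-2B, where 21.3% of all genes were. LNCaP then had 33 lower and 2 higher, where 27.4% of all genes were lower and 3913 of 13238 higher.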

Other observations

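The enzymes of the tricarboxylic acid cycle and pyruvate dehydrogenase, which supply NADH and succinate to complexes I and II, were measured beside the subunits. Of 18 genes, 5 fell with TG in C4-2B siCTRL cells and 6 in LNCaP, where 19.3% and 25.1% of all genes fell. In edgeR's test 0 rose in either line, where 21.2% and 24.6% of all genes rose. The 18 genes had medians of -0.34 and -0.22 on the log2 scale, against -0.01 and -0.04 over all genes tested. OGDH, a subunit of the 2-oxoglutarate dehydrogenase complex, averaged 302 ± 37.6 CPM (SD, n = 4) in C4-2B and 173 ± 35.5 CPM with TG, and 477 ± 20.9 and 223 ± 18.5 CPM in LNCaP. It fell by 0.80 (adjusted p = 0.000389) and 1.09 (adjusted p = 4.75e-09). The mobile electron carrier CYCS (cytochrome c) averaged 461 ± 54.9 and 408 ± 30 CPM in C4-2B and 450 ± 58.6 and 463 ± 30.7 CPM in LNCaP, and neither difference passed the threshold (adjusted p = 0.235 and 0.747).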
